A study of Mus musculus with 16 samples.

Results

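The genes described here are 10 immediate early genes of the NR4A, EGR and AP-1 families, namely Nr4a1, Nr4a2, Nr4a3, Egr1, Egr2, Egr3, Fos, Fosb, Jun and Junb. They were chosen by family name from a table of 13085 genes measured in mouse monocytes, with results of the stimulus and of the NFAM1 genotype at 6 h already in view. All 10 of them are listed in the table, and all 10 passed the filter on low values, which asks for 1 CPM or more in 2 or more libraries and which 12782 genes passed in all. CPM is the read count of a gene scaled to the size of its library. Because the 6 h values were known when the genes were chosen, every comparison that uses the 6 h libraries is given for these genes as a description, 24 h against 6 h included, and tests are given only for the stimulus at 24 h.

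Immediate early genes are transcribed within minutes of a signal, without a need for new protein, and their messenger RNAs are short-lived. NR4A proteins are orphan nuclear receptors, EGR proteins are zinc finger factors, and FOS and JUN proteins pair with each other as AP-1. In mouse monocytes Nr4a1 is known for its role in the Ly6C-low subset, while EGR and AP-1 factors take part in the maturation and activation of macrophages.

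Monocytes of C57BL/6 mice, NFAM1+/+ or NFAM1-/-, were kept in culture for 6 or 24 h, either unstimulated or stimulated with IFN-γ plus CD40L, which binds the receptor CD40 on monocytes. NFAM1 is a membrane receptor whose tail carries an ITAM signaling motif, and exons 2 and 3 of its gene are deleted in the NFAM1-/- mice. IFN-γ was added 1 h before CD40L at 1 µg/mL, and its dose differs between the sample labels and the methods of the study. At 6 h each genotype and stimulus has 2 libraries, and at 24 h each stimulus has 4. The study names 4 NFAM1+/+ and 6 NFAM1-/- mice for this sequencing, fewer than the 16 libraries, so some libraries share mice if these numbers cover all. It is not stated which mice gave which library or whether cells were pooled, so the libraries were compared as unpaired and p-values measure the spread between these libraries, which may be technical. The labels name blood monocytes and the methods bone marrow monocytes, and the age and sex of the mice are not given in the sources used here.

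The libraries held between 48295939 and 88514341 reads on the listed genes. One read was worth between 0.00870 and 0.0197 CPM, so that the lowest value of Fosb, 0.277 CPM, rested on 18 reads and that of Egr3, 1.06 CPM, on 70. The ratio of these reads to the scaled size that the deposited values rest on was 0.756 to 0.788 in the libraries without stimulus, 1.24 to 1.32 with the stimulus at 6 h and 0.970 to 0.997 with it at 24 h. The deposited scaling thus differs by stimulus, and values under another scaling are given where they change a result. Of the 9 monocyte marker genes, all 9 were listed, led by Lyz2, a lysozyme, and their summed level was 22949 to 30418 CPM without and 8331 to 11555 CPM with the stimulus. The markers of T cells and of NK cells that were measured each summed to at most 21.0 CPM in any library, and Cd3e and Ncr1, which define those cells, were not analysed here.

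Of the 8 libraries at 24 h, 4 carry conflicting labels, in that title and tag give opposite genotypes, the source name agreeing with the title. These are libraries 44 and 56, NFAM1+/+ by title and NFAM1-/- by tag, and libraries 46 and 58, NFAM1-/- by title and NFAM1+/+ by tag. The genotypes were therefore pooled at 24 h. Nfam1 was counted over the whole gene, including the exons that are not deleted, so its level checks the labels only weakly. At 6 h without stimulus Nfam1 stood at 432 and 408 CPM in NFAM1+/+ and at 299 and 321 CPM in NFAM1-/- libraries, and with the stimulus at 133 and 129 CPM against 135 and 127 CPM. At 24 h without stimulus it stood at 441 CPM in library 43, 463 in library 44, 495 in library 45 and 391 in library 46, and with the stimulus at 201 CPM in library 55, 271 in library 56, 252 in library 57 and 223 in library 58. The genotypes did not overlap at 6 h without stimulus and overlapped with it. At 24 h the NFAM1-/- libraries by title lay below the NFAM1+/+ ones without overlap for either stimulus, by log2 differences of -0.20 and -0.30, while by tag the genotypes overlapped in both, at 0.039 and -0.023.

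RefSeq start sites of 8 of the 10 genes were searched on both strands in GRCm38.p6, while Egr1 and Egr3 were not searched. All 5 starts listed for Egr2 and 1 for each other gene were used, from 250 bases before to 50 bases after the start. The letters TGACG, the short form of the cyclic AMP response element at which CREB and ATF proteins bind, occurred in 7 of these 8 genes, all but Jun, and in 20.8% of 32851 promoters of the same length. The full element TGACGTCA (1.79% of promoters), the AP-1 motif TGANTCA (7.81%), the NR4A motif AAAGGTCA (1.51%) and the motif TTCNNNGAA of STAT factors (8.30%) had no match in any of the 8 genes. The EGR motif GCGNGGGCG (5.55% of promoters) matched in Nr4a1, Nr4a2 and Fosb, and the letters GGAAA bound by NFAT factors (61.3%) in Nr4a2, Jun and Egr2. A CArG box, where serum response factor binds (1.63%), matched in Egr2 alone of the 8 genes searched. A match is a description of letters and not a measured site. The 250 bases before the start are shown for 1 NR4A and 1 EGR gene and for Fos and Junb, 1 FOS and 1 JUN gene whose called differences at 24 h were opposite. Capitals mark TGACG on either strand and, in Egr2 only, also the CArG box. They lie at chr15:101266596-101266845 on the plus strand for Nr4a1, at chr10:67537619-67537868 on the plus strand for Egr2, at chr12:85473640-85473889 on the plus strand for Fos and at chr8:84978749-84978998 on the minus strand for Junb, and overlap no exon of GENCODE vM21.

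Nr4a1: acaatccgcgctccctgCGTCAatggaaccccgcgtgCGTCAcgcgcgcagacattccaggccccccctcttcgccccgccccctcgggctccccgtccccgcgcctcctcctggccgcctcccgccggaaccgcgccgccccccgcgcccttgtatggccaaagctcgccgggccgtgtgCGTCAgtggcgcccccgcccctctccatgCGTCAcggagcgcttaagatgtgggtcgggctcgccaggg
Egr2: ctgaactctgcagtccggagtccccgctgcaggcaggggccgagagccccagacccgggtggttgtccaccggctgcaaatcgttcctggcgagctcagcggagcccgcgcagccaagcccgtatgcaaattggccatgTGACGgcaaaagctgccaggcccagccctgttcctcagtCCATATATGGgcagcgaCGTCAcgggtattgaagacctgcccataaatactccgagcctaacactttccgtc
Fos: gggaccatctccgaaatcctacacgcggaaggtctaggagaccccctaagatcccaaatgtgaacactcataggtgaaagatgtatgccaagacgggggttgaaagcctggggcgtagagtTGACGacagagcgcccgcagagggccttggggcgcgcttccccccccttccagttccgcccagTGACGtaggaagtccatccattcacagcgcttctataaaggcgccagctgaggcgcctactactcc
Junb: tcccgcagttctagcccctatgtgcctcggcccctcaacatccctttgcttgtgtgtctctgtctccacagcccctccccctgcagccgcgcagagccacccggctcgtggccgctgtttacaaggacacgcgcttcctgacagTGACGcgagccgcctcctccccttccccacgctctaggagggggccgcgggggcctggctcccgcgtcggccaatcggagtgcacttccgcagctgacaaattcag

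Levels of different genes were compared per kb of exons of GENCODE vM21. Without stimulus at 6 h Junb stood highest at 189 ± 14.1 CPM per kb (SD, n = 4), followed by Fos at 60.8 ± 4.27 and Nr4a1 at 52.5 ± 8.46, whose ranges overlapped. Jun was next at 19.1 ± 1.09 CPM per kb, and the lowest were Egr3 at 0.341 ± 0.138 and Fosb at 0.246 ± 0.0480, which overlapped. Egr1 at 7.28 ± 1.87 and Egr2 at 4.43 ± 0.990 CPM per kb overlapped, as did Nr4a2 at 1.90 ± 0.214 and Nr4a3 at 1.84 ± 0.430. Without stimulus at 24 h the order of the first 6 genes was as at 6 h, with each of Junb, Fos, Nr4a1 and Jun overlapping its neighbour. With the stimulus Jun stood next to Junb at both times, at 102 ± 15.7 CPM per kb at 6 h and 42.2 ± 1.83 at 24 h, and overlapped neither Junb above it nor Fos below it. With the stimulus at 24 h Nr4a1 at 4.07 ± 1.78, Egr2 at 4.03 ± 1.15 and Egr1 at 3.20 ± 0.623 CPM per kb could not be ordered beyond their spread.

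**Figure D1:**
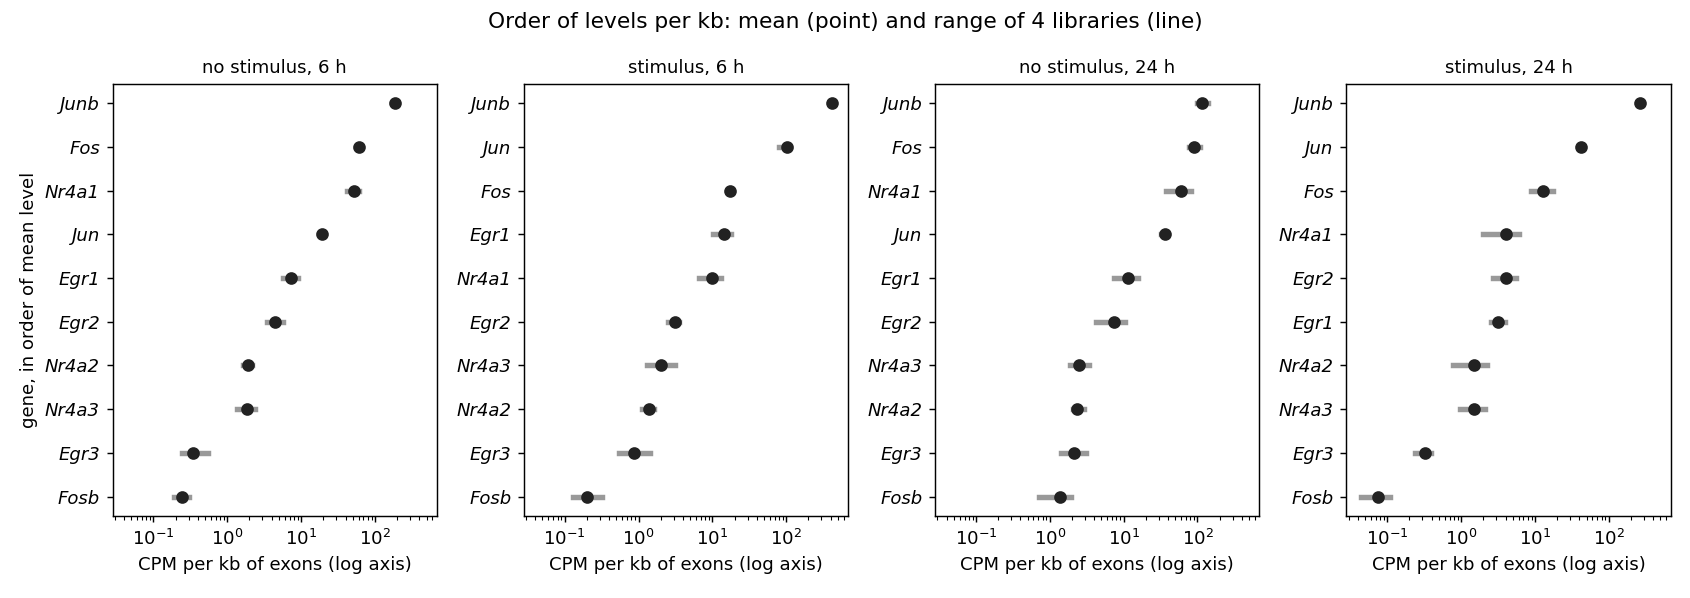
Level of each gene in CPM per kb of exons on a log axis, in 4 panels by stimulus and time, with the mean of 4 libraries as a point and their range as a line, genes in order of the mean. Junb stands first in each panel and Fosb last, and Jun stands below Fos without stimulus and above it with the stimulus.

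After 24 h with IFN-γ plus CD40L 8 of the 10 genes had lower mean levels than without stimulus, while Junb and Jun had higher ones, that of Jun turning lower under 2 of 3 other scalings. In limma with Benjamini-Hochberg adjustment over 12782 genes, 5 of the 10 were called lower (Nr4a1, Egr1, Egr3, Fos and Fosb), 1 was called higher (Junb) and 4 were not called, where a call needs at least a 2-fold change and an adjusted p under 0.05. Of all genes tested 33.3% were called, 18.7% lower and 14.6% higher. The median log2 fold change was -1.31 over the 10 genes and 0.0073 over all genes tested. The samples are bulk cells, so fewer cells of a type and less RNA per cell cannot be told apart.

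Among the NR4A genes, Nr4a1 showed the largest difference. Nr4a1, the NUR77 receptor, stood at 138, 273, 290.3 and 129.8 CPM in libraries 43, 44, 45 and 46 without stimulus and at 11.9, 21.6, 16.5 and 7.002 CPM in libraries 55, 56, 57 and 58 with it. The highest stimulated library lay well below the lowest unstimulated one. Its mean fell from 208 ± 85.9 to 14.3 ± 6.24 CPM (SD, n = 4 each), a log2 fold change of -3.88 with an SE of 0.30 and an adjusted p of 1.65e-08 by limma. The exact two-sided permutation test gave 0.0286, the smallest value that 70 relabelings of 4 against 4 allow. Nr4a2, the NURR1 receptor, stood at 8.71, 8.65, 11.8 and 8.45 CPM without stimulus and at 5.09, 8.98, 6.93 and 3.11 CPM with it, and the groups overlapped. Its log2 fold change of -0.73 (SE 0.24, limma adjusted p 0.0132, exact p 0.114) was under 2-fold and was not called. Nr4a3, the NOR1 receptor, was alike in that its groups overlapped, at 14.9 ± 3.83 against 8.87 ± 2.75 CPM (SD, n = 4 each) with an exact permutation p of 0.0571. Its log2 fold change was -0.77 with an SE of 0.22 and a limma adjusted p of 0.00581, and it was not called.

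Of the EGR genes Egr1 and Egr3 were called lower. Egr1, the best-known member of the family and induced by most growth signals, stood at 33.4, 66.5, 69.8 and 36.7 CPM in libraries 43, 44, 45 and 46 without stimulus and at 11.5, 15.2, 12.8 and 17.8 CPM in libraries 55, 56, 57 and 58 with it. The groups did not overlap, although the unstimulated libraries fell into a higher and a lower pair. The log2 fold change of Egr1 was -1.79 with an SE of 0.21 and a limma adjusted p of 1.44e-06 (exact p 0.0286). Egr3, which is known for its role in T cell tolerance, stood at 6.21, 9.98, 13.6 and 7.39 CPM without stimulus and at 1.06, 1.57, 1.40 and 1.70 CPM with it. Every stimulated library was below every unstimulated one, with a log2 fold change of -2.65, an SE of 0.26 and a limma adjusted p of 2.31e-07 (exact p 0.0286). Egr2, which takes part in macrophage identity, stood at 19.2, 33.2, 35.1 and 14.3 CPM without stimulus and at 14.2, 9.30, 12.6 and 18.7 CPM with it. Its groups overlapped because library 46 was lower than library 58, and its log2 fold change of -0.84 (SE 0.26, limma adjusted p 0.00897, exact p 0.0571) was not called. Without library 46 it was -1.08 and without library 58 it was -1.004, and Egr2 was then called.

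Fos and Fosb were called lower and Junb higher, and Junb kept its sign but not its call under 2 of the 3 other scalings. Fos, which binds DNA only as a pair with another AP-1 protein such as JUN, stood at 192, 251, 214 and 182 CPM without stimulus in libraries 43 to 46 and at 20.6, 40.8, 28.3 and 31.4 CPM with it in libraries 55 to 58. All stimulated libraries were below, and the log2 fold change was -2.82 with an SE of 0.15 and a limma adjusted p of 2.12e-10 (exact p 0.0286). Fosb, a close paralog of Fos, stood at 12.1, 8.89, 9.36 and 4.47 CPM without stimulus and at 0.549, 0.690, 0.277 and 0.333 CPM with it. Its stimulated values rested on 18 to 49 reads each, and its log2 fold change was -4.24 with an SE of 0.36 and a limma adjusted p of 3.70e-08 (exact p 0.0286). Junb, known as a weaker activator than Jun, stood at 229.7, 319, 292 and 232 CPM without stimulus and at 607, 646, 634 and 565 CPM with it. Every stimulated library was above, with a log2 fold change of 1.21, an SE of 0.094 and a limma adjusted p of 1.54e-08 (exact p 0.0286). Jun stood at 116 ± 9.87 CPM without and 135 ± 5.85 CPM with the stimulus (SD, n = 4 each), all stimulated libraries being above (exact p 0.0286). Its log2 fold change of 0.22 (SE 0.088, limma adjusted p 0.0352) was not called.

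**Figure D2:**
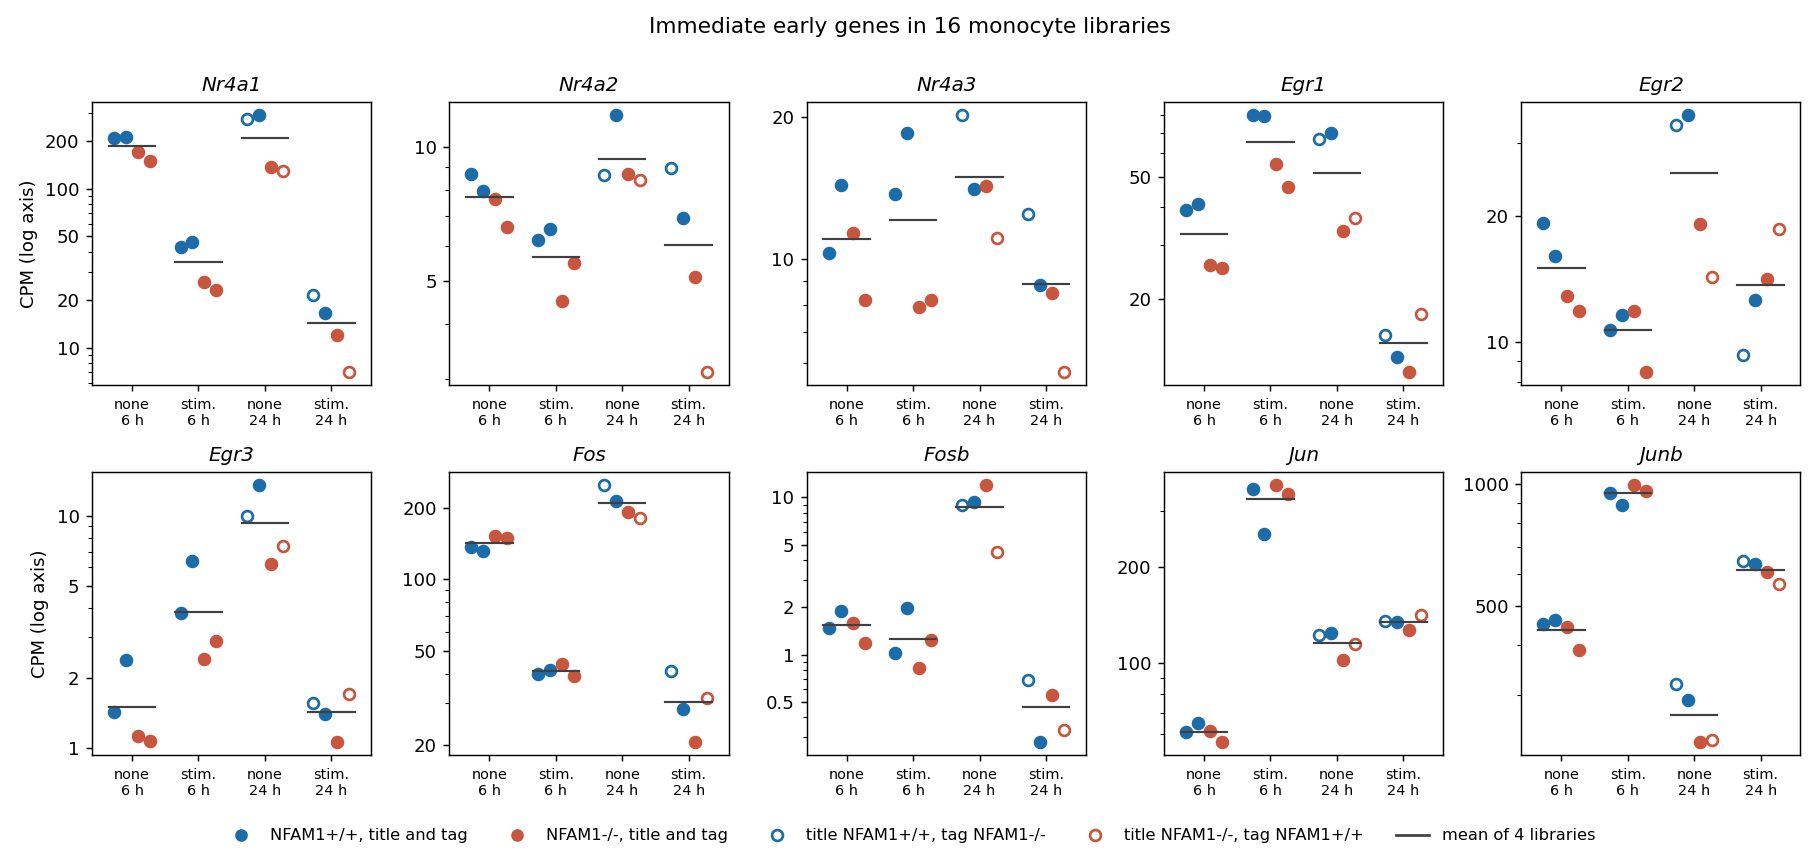
CPM of each gene on a log axis in the 16 libraries, 4 for each stimulus and time, with the mean of 4 as a line; blue points are NFAM1+/+ and red points NFAM1-/- by title, and open points mark libraries whose tag names the other genotype. At 24 h the stimulated libraries lie below the unstimulated ones for Nr4a1, Egr1, Egr3, Fos and Fosb and above them for Jun and Junb.

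The direction was lower for Nr4a1, Egr1, Egr3, Fos and Fosb under each of the 3 other scalings that were tried, while Junb stayed higher but was not called under 2 of them, and Jun turned lower under the same 2. Scaling each library to its own total of reads moved the median of all genes by -0.33 on the log2 scale, and then 8 of the 10 genes were called lower and 0 higher, with Junb at 0.87 and Jun at -0.11. Quantile normalization gave Junb 0.72 and Jun -0.057. Markers of other cells moved with the stimulus as well, although the methods of the study isolate monocytes with an enrichment kit. Of 12 neutrophil markers 11 were called lower at 24 h, and their summed level was 692 to 1222 CPM without and 143 to 246 CPM with the stimulus, led by S100a9, a calcium-binding protein, while Ly6g, which defines neutrophils, was at most 2.22 CPM. Of the 5 dendritic cell markers 2 were called higher and 2 lower. They summed to 90.4 to 190.5 CPM without stimulus, led by Flt3, a growth factor receptor, and to 34.5 to 39.96 CPM with it, where mean Flt3 was 105 without and 3.66 CPM with the stimulus and mean Zbtb46, a transcription factor, was 5.64 and 19.4 CPM. Of the 9 monocyte markers 7 were called lower and 1 higher, and of the 11 markers of Ly6C-low monocytes 8 were called lower and 2 higher. The Ly6C-low markers summed to 1815 to 2244 CPM without and 993 to 1255 CPM with the stimulus. Klrd1, the 1 NK cell marker measured, was called lower, with 13.4 to 21.04 CPM without and 0.300 to 0.444 CPM with the stimulus. Cd79a and Cd79b, which are markers of B cells, and both erythroid markers measured were called lower, as were 1 of 3 T cell markers and 1 of 4 markers of basophils or mast cells. The part of these cells in the differences of the 10 genes was not tested.

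**Figure D3:**
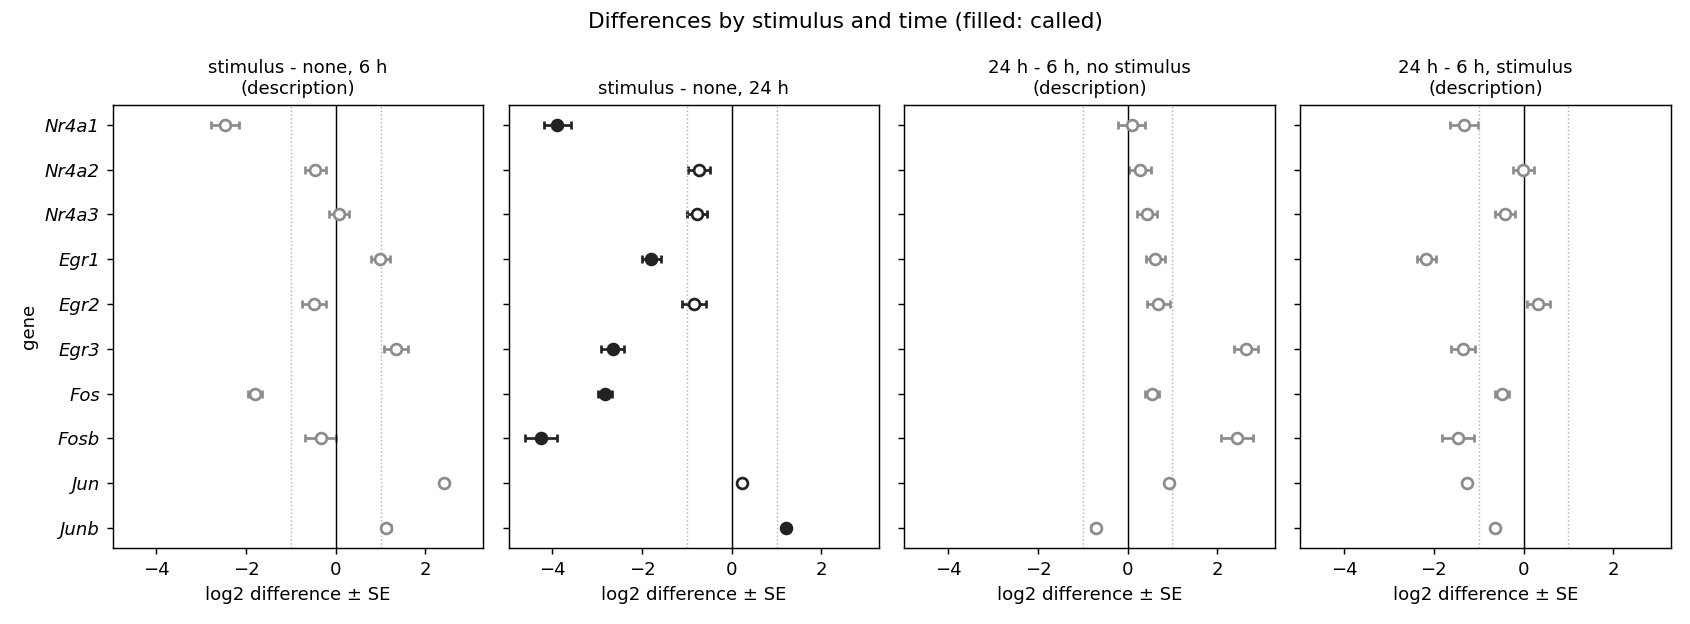
Log2 difference with its SE for each gene in 4 panels, with filled points for genes called at 24 h, dotted lines at a 2-fold difference and grey open points where no test is given. At 24 h Fosb at -4.24 and Nr4a1 at -3.88 lie farthest below 0 and Junb at 1.21 lies above it, while Egr1 and Egr3 lie above 0 at 6 h.

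Without stimulus, the comparison of 24 h with 6 h asks how the genes stood after longer culture alone. It is a description for these genes, since the 6 h libraries were in view when they were chosen. Time and any difference in the handling of the libraries of each time cannot be told apart, and the comparison shares libraries with those of the stimulus. By limma 21.0% of all genes were called, 13.3% higher at 24 h and 7.71% lower. Egr3 stood at 1.43, 2.38, 1.13 and 1.07 CPM in the 6 h libraries 1, 2, 3 and 4, below each of the 24 h values above, with a log2 difference of 2.64 and an SE of 0.26. Fosb stood at 1.47, 1.90, 1.59 and 1.18 CPM in the same libraries, again below each 24 h value, and its log2 difference was 2.44 with an SE of 0.36. Jun, Fos and Junb also separated the times without overlap, but by less than 2-fold. Their log2 differences were 0.93 for Jun (60.9 ± 3.49 to 116 ± 9.87 CPM), 0.54 for Fos (143 ± 10.0 to 209.5 ± 30.7 CPM) and -0.71 for Junb (435 ± 32.3 to 268 ± 44.4 CPM; SD, n = 4 each). Jun was at 1.06 with quantile normalization. Nr4a1 at 0.088, Nr4a2 at 0.28, Nr4a3 at 0.43, Egr1 at 0.62 and Egr2 at 0.69 overlapped between the times. The median of the 10 genes was 0.58 and that of all genes 0.044. Neutrophil markers also stood higher at 24 h without stimulus, with 10 of 12 called and a summed level of 122 to 288 CPM at 6 h against 692 to 1222 CPM at 24 h. The dendritic cell markers summed to 31.4 to 42.5 CPM at 6 h against 90.4 to 190.5 CPM at 24 h, and 3 of 5 were called higher and 1 lower. Of the 11 Ly6C-low markers 5 were called lower and 0 higher. Of 3 T cell markers 2 were called higher, as was Cd79b, with means of 3.63 CPM at 6 h and 12.0 CPM at 24 h. The handling stress genes Hspa1a at -2.34 and Hspa1b at -1.42 were called lower. Their part in the differences of Egr3 and Fosb was not tested.

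With IFN-γ plus CD40L the 24 h libraries stood lower than the 6 h libraries by more than 2-fold for 5 of the 10 genes (Nr4a1, Egr1, Egr3, Fosb and Jun), again as a description. By limma 33.5% of all genes were called, 17.1% lower and 16.5% higher. Jun stood at 253, 352, 362 and 338 CPM in the 6 h libraries 26, 10, 11 and 12 and at 127, 135, 134 and 142 CPM in libraries 55, 56, 57 and 58, a log2 difference of -1.27 with an SE of 0.088. Egr1 stood at 65.2 ± 17.03 at 6 h and 14.3 ± 2.79 CPM at 24 h (SD, n = 4 each), a log2 difference of -2.17. Nr4a1 stood at 34.5 ± 11.8 and 14.3 ± 6.24 CPM (SD, n = 4 each), a log2 difference of -1.33, and Egr3 and Fosb differed by -1.35 and -1.47. All 5 of these genes were below in every 24 h library. Scaling each library to its own total of reads moved the median of all genes by 0.37, and Nr4a1, Egr3 and Jun were then at -0.95, -0.98 and -0.89. Quantile normalization put Jun at -0.80. Junb at -0.63 was below in every 24 h library but under 2-fold, and Fos at -0.48, Nr4a3 at -0.41, Nr4a2 at -0.0016 and Egr2 at 0.33 overlapped. The median was -0.95 over the 10 genes and 0.042 over all genes. Of the 11 Ly6C-low monocyte markers 6 were called lower and 0 higher, and their sum, led by the integrin gene Itgal, was 2065 to 2623 CPM at 6 h and 993 to 1255 CPM at 24 h. Of the 9 monocyte markers 4 were called lower and 0 higher, of the 12 neutrophil markers 4 and 0. Of the 5 dendritic cell markers 1 was called lower and 0 higher. Of Cd79a and Cd79b 1 was called lower and 1 higher, as were 1 and 1 of 3 T cell markers. Both erythroid markers measured, led by the globin gene Hbb-bs, were called lower, with sums of 6.34 to 34.9 CPM at 6 h and 0.662 to 2.72 CPM at 24 h, as was Klrd1, the 1 NK cell marker measured. Of 5 handling stress genes 2 were called higher and 1 lower. Their part in the differences of the 10 genes was not tested.

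At 6 h the stimulus gave a mixed picture, which is a description because these values were known when the genes were chosen. At that time 39.6% of all genes were called by the same rule. Nr4a1 stood at 207, 211, 171 and 149 CPM in libraries 1, 2, 3 and 4 without stimulus and at 46.5, 42.7, 25.7 and 23.2 CPM in libraries 26, 10, 11 and 12 with it, a log2 difference of -2.47. Fos was lower as well, at 143 ± 10.0 CPM without and 41.0 ± 2.09 CPM with the stimulus (SD, n = 4 each), a log2 difference of -1.80. Jun was higher in every stimulated library, at 60.9, 65.1, 61.1 and 56.6 CPM without and 253, 352, 362 and 338 CPM with the stimulus, a log2 difference of 2.41. Junb differed by 1.13, and by 0.40 when libraries were scaled to their own totals and 0.12 after quantile normalization. Egr1 differed by 0.99 and Egr3 by 1.34, with every stimulated library above every unstimulated one, the opposite side from 24 h. Scaling to own totals moved the median of all genes at 6 h by -0.73, and Egr1 and Egr3 then stood at 0.26 and 0.61 and their libraries overlapped. The remaining 4 genes differed by -0.45 (Nr4a2), 0.066 (Nr4a3), -0.48 (Egr2) and -0.34 (Fosb), with own-total values of -1.18, -0.67, -1.22 and -1.07. Nr4a1, Fos and Jun stood at -3.20, -2.53 and 1.68 with own totals, on the same side in every library. Of the 9 monocyte markers 5 were called lower and 2 higher at 6 h, of the 11 Ly6C-low markers 7 and 2, of the 5 dendritic cell markers 1 and 3, of the 12 neutrophil markers 1 and 1 and of 3 T cell markers 0 and 2, while Klrd1 and 1 of Cd79a and Cd79b were called lower. The monocyte markers summed to 22949 to 25202 CPM without and 8331 to 10309 CPM with the stimulus. The handling stress genes Hspa1a and Hspa1b were higher in every stimulated library, by 1.57 and 1.37. The part of these in the differences of the 10 genes was not tested.

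The comparison of the genotypes asks whether loss of NFAM1 goes with other levels of these genes. At 6 h it is a description, with 2 libraries against 2. An exact permutation test of that size cannot go below 0.333, so a lack of overlap alone shows little. The share of all genes without overlap was not counted. Without stimulus Egr1 stood at 39.0 and 40.8 CPM in NFAM1+/+ and at 25.7 and 25.2 CPM in NFAM1-/- libraries, and with the stimulus at 79.3 and 80.0 CPM against 55.3 and 46.3 CPM. Both log2 differences, NFAM1-/- minus NFAM1+/+, were -0.65. The 2 genotypes did not overlap at either stimulus. Nr4a1 was also lower in each NFAM1-/- library, by log2 differences of -0.39 without and -0.87 with the stimulus (46.5 and 42.7 against 25.7 and 23.2 CPM). Nr4a3 stood at 18.5 and 13.7 CPM in NFAM1+/+ and 7.90 and 8.19 CPM in NFAM1-/- libraries with the stimulus, a difference of -0.99, and overlapped without it at -0.33. Egr3 differed by -0.75 and -0.90 and Nr4a2 by -0.23 and -0.36, each without overlap, while Egr2 differed by -0.51 without overlap and by -0.15 with overlap. Of the AP-1 genes Fos differed by 0.17 and 0.031, Jun by -0.10 and 0.23, Junb by -0.14 and 0.094 and Fosb by -0.29 and -0.51, with overlap for Jun and Fosb at both and for Fos with the stimulus. Jun with the stimulus ran from -0.0098 to 0.47 when 1 library was left out. Over all alternatives tried, Egr2 with the stimulus ran from -0.40 to 0.095, Fos from -0.050 to 0.11 and Fosb from -0.98 to -0.036. Egr3 ran from -1.12 to -0.38 without and from -1.27 to -0.53 with the stimulus. Nr4a3 ran from -0.57 to -0.092 without and from -1.20 to -0.77 with it, and Nr4a2 without it from -0.33 to -0.12. Among all genes tested by limma, 0.0469% were called between the genotypes without stimulus and 0 (0%) with it. Of these genes 968 and 1526 had an unadjusted p under 0.05. This fit pools the genotypes at 24 h, so a genotype difference there would widen the SE and lower these shares. For Nr4a1 the SE of 2 against 2 libraries was 0.43 in this fit. It was 0.18 with genotype at 24 h by title and 0.43 by tag. None of these log2 differences of the 10 genes reached 1 in the fit of all 16 libraries as deposited, while those of Egr3 and Nr4a3 passed it under some alternatives. No marker gene of any list was called, but some summed levels did not overlap between the genotypes. The Ly6C-low sums without stimulus were 2742 and 2653 CPM in NFAM1+/+ and 2439 and 2338 CPM in NFAM1-/- libraries. With the stimulus the monocyte sums were 8331 and 8543 against 10309 and 9973 CPM. The dendritic cell sums were 51.1 and 39.9 against 34.5 and 37.4 CPM and the erythroid sums 34.9 and 17.02 against 6.34 and 9.37 CPM. The B cell sums were 1.35 and 1.58 against 1.04 and 1.08 and the NK cell sums 4.56 and 3.74 against 4.85 and 5.14 CPM. The median of the neutrophil markers was -0.46 at both stimuli, with sums that overlapped. Their part in the differences of the 10 genes was not tested.

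At 24 h the design sets no test of the genotype because the labels conflict, and the values are given as a description. Where title and tag name 1 genotype there is a single library for each genotype and stimulus. Nr4a1 stood at 290.3 CPM in the NFAM1+/+ library 45 and at 138 CPM in the NFAM1-/- library 43 without stimulus, and at 16.5 CPM in library 57 and 11.9 CPM in library 55 with it. Of the libraries with conflicting labels, 44 lay near library 45 and 46 near library 43 without stimulus, at 273 and 129.8 CPM, while with it library 56 lay above and library 58 below the other 3. Taken by title, the log2 difference of Nr4a1 was -1.08 without and -1.05 with the stimulus, and taken by tag it was -0.0016 and 0.58. Egr1 differed by -0.96 and 0.036 by title and by -0.10 and -0.20 by tag. Egr2 differed by -1.05 without and 0.59 with the stimulus by title, and by 0.17 and -0.42 by tag. Fosb with the stimulus did not overlap by tag, at 0.549 and 0.690 CPM in NFAM1-/- against 0.277 and 0.333 CPM in NFAM1+/+ libraries, a difference of 1.02, and overlapped by title at -0.033. Nr4a3 without stimulus also did not overlap by tag, at 0.45, and overlapped by title at -0.42. By title, Nr4a1, Egr1, Egr2, Egr3, Fos, Jun and Junb did not overlap without stimulus. With the stimulus Nr4a1, Nr4a2, Nr4a3, Egr2 and Junb did not overlap by title. By tag only Nr4a3 without and Fosb with the stimulus did not overlap. Which genes appear to differ thus depends on the label used, and more of these genes separated by title than by tag. The share of all genes that separate by either label was not counted. An exact test of 2 against 2 cannot go below 0.333, so separation alone shows little about these genes. Nfam1 separated by title and not by tag, as given above. With 2 libraries against 2, and with overlap at 6 h with the stimulus, this does not settle the labels. Most marker sums also separated by title. Without stimulus all lists did but that of basophils or mast cells. With the stimulus all did but those of neutrophils, dendritic cells and basophils or mast cells. Without stimulus the dendritic cell sums were 162.5 and 190.5 CPM in libraries 43 and 46 against 90.4 and 98.9 in 44 and 45. The neutrophil sums were 1222 and 978 against 863 and 692 CPM. With the stimulus the monocyte sums were 11533 and 11555 CPM in libraries 55 and 58 against 8347 and 9190 in 56 and 57. By tag, the neutrophil and the basophil or mast cell sums did not overlap with the stimulus. Their part was not tested.

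**Figure D4:**
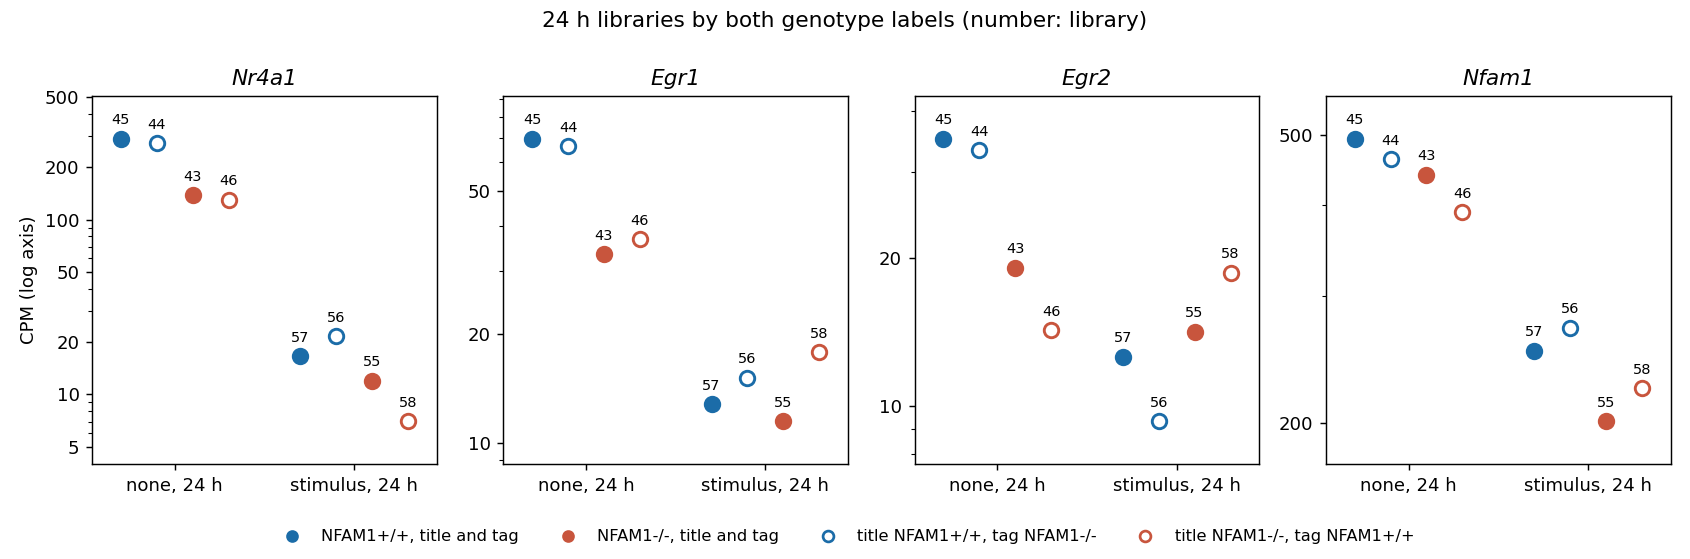
CPM on a log axis of Nr4a1, Egr1, Egr2 and Nfam1 in each 24 h library, numbered, with color by the genotype of the title and open points where the tag names the other genotype. For Nr4a1 without stimulus, libraries 45 and 44 stand at 290.3 and 273 CPM and libraries 43 and 46 at 138 and 129.8 CPM.

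Other genes of the same response were counted from fixed lists by the same limma calls at 24 h, where 14.6% of all genes were called higher and 18.7% lower with the stimulus and own-total scaling moved the median of all genes by -0.33. Of 32 other immediate early genes 29 were tested, and Egr4, Ccn1 and Ccn2 were not analysed here. With the stimulus 11 were called higher, 5 lower and 13 not, and their median log2 fold change was 0.16. The largest were Ier5l at -5.25, which rests on 4 to 18 reads in each stimulated library and is inexact, Csrnp1, a nuclear factor, at 4.40, Rgs1, an inhibitor of G protein signaling, at 4.18 and Myc, a growth regulator, at -3.68. All 11 other partners of AP-1 dimers were tested, with 4 called higher, 2 lower and a median of 0.55. Batf2, which pairs with JUN proteins, stood at 2.20 ± 0.678 CPM without and 419 ± 22.9 CPM with the stimulus (SD, n = 4 each), a log2 fold change of 7.61. Maff at 3.08 and Mafk at 1.44, small MAF proteins, and Jdp2 at 2.21, a JUN-binding repressor, were also higher. These 4 stood higher at 24 h along with Junb, while Fos and Fosb were lower. Of 24 upstream regulators and EGR corepressors 22 were tested, with 2 called higher, 7 lower and a median of -0.38. Mef2c, a MADS box transcription factor, was called at -3.64, the p38 kinase gene Mapk11 at 2.15 and Elk3, a partner of serum response factor, at -1.55. Nab2, which binds EGR proteins and represses their targets, stood at 33.9 ± 4.54 CPM without and 12.7 ± 1.49 CPM with the stimulus (SD, n = 4 each), a log2 fold change of -1.41. At 6 h Nab2 was higher with the stimulus in every library, by 0.67, as were Egr1 and Egr3, but with own totals all 3 overlapped and Nab2 was at -0.062. Of 5 genes of handling stress 2 were called higher, the HSP70 genes Hspa1a at 2.99 and Hspa1b at 1.18, which share near-identical sequence and may share reads.

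Genes with the pattern most like 3 of the members over the 16 libraries were found by Pearson correlation of log2 values. The libraries fall into clusters by stimulus, so the coefficients can follow the groups, to an extent that differs by gene, and no p is given. Fos was most like Sesn1 (r = 0.990), Lgmn (0.984), Mtss1 (0.983), Colec12 (0.982) and Slc43a2 (0.982). Nr4a1 was most like Clec4a2 (r = 0.977), Lgmn (0.968), Pon2 (0.966), Ifnar1 (0.965) and H3f3a (0.965). Within groups, after the mean of each of the 6 groups was taken out, r with Nr4a1 ranged from 0.233 for Ifnar1 to 0.908 for Pon2. These groups pool the genotypes at 24 h, so the split of those libraries by title remains in the values within groups. Egr2 was most like Krba1 (r = 0.894), Slc39a4 (0.860), Cd79b (0.853), Ptprv (0.847) and Abcd3 (0.836). Within groups r ranged from 0.656 to 0.864 for these 5 genes with Egr2 and from 0.536 to 0.685 for the 5 with Fos. Among the 10 genes themselves Nr4a1 and Fos had the highest r, 0.945, and Fos and Junb the lowest, -0.82.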

How the data were processed

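RNA of mouse monocytes was sequenced as non-stranded polyA libraries. The authors deposited log2 CPM values for 13085 genes in 16 libraries, and the submitters' processing notes name FastQC, STAR, edgeR, limma and the builds GRCm39 and mm39, without versions. Each deposited value equals log2 of whole reads plus 0.5 over a scaled size, and whole reads were recovered for 100% of values within 0.01 read. No pair of libraries of a stimulus and time agreed within sampling noise. Of the symbols, 17 appear as dates and 1 is repeated, none of them among the 10 genes. The log2 values of all 16 libraries were fitted with limma 3.58.1 in R 4.3.3 (trend, 6 groups, 10 residual degrees of freedom), after a filter of at least 1 CPM in at least 2 libraries that left out 303 genes. A gene was called where the fold change was 2 or more and the p, adjusted by Benjamini-Hochberg, was under 0.05. Exact two-sided permutation tests compared 4 with 4 libraries. The steps were tested on simulated data. Exon lengths are from GENCODE vM21 on GRCm38 and promoters from RefSeq on GRCm38.p6, neither of which is the authors' build, so they serve only for lengths and sequences. The 10 genes and the lists were chosen with earlier results of these data known. Named genes are the 10, up to 4 called genes of each list with the largest log2 fold change at 24 h, the 5 genes most correlated with each of Nr4a1, Egr2 and Fos, and Nfam1. The alternatives were other filters, scalings, weights and variance priors (statmod 1.5.0), only the libraries compared, no minimum fold, genotype at 24 h by title or tag, and leaving out each library. Count models were not run, since the design set limma on log2 values before the files were seen. The design also set tests of the 10 genes for 24 h against 6 h. They are not reported, since the 6 h libraries were in view in the choice of the genes. Figures were drawn with Python 3.11.15 and matplotlib 3.10.9.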

Additional observations from a re-analysis of the deposited data

Results flagged for a closer look

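In the 24 h libraries without stimulus, Nr4a2 in library 45 lay apart from the other 3, with a gap of 0.907 of the whole range, above Dixon's critical value for 4 libraries. Chance gives about 1 in 20 such gaps, and this was the 1 found in 20 groups of 4 libraries (10 genes, each stimulus). For 3 genes the stimulus differed in sign between the times, with every stimulated library on one side at 6 h and on the other at 24 h. The log2 differences at 6 and 24 h were 0.99 and -1.79 for Egr1, 1.34 and -2.65 for Egr3 and 0.67 and -1.41 for Nab2. Under own-total scaling the libraries of all 3 genes overlapped at 6 h, at 0.26, 0.61 and -0.062, while quantile normalization and median centring kept both sides. The difference between the times was not tested.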

How the results depend on the processing

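Without the minimum fold the genes called numbered 9436 for the stimulus at 24 h, 7994 for 24 h against 6 h without stimulus and 9595 with it, and with a mean of at least 5 CPM, which tests fewer genes and leaves out Egr3 and Fosb, 2555, 1444 and 2744. Own-total scaling left 30.4% of the calls for the stimulus and 69.4% of those for time with the stimulus on the higher side, against 43.9% and 49.1% as deposited, and median centring left 38.0% of the latter. For Jun the stimulus at 24 h turned to -0.057 with quantile normalization and -0.11 with own totals, and for Nr4a2 time with the stimulus turned to 0.37 with own totals. Own totals also gave Nr4a2, Nr4a3 and Egr2 calls for the stimulus, at -1.07, -1.10 and -1.17. Leaving out 1 library moved Nr4a1 between -0.11 and 0.28 for time without stimulus, and Nr4a2 between -0.23 and 0.28 for time with it. These values near 0 changed sign, and the cause was not tested. No call of the 10 genes for the stimulus at 24 h was lost when 1 library was left out. Of 118 values of the 10 genes for the stimulus at 24 h under other alternatives, 107 kept their direction and their side of the threshold. Most of these alternatives, such as the filters, variance priors and group labels, leave the log2 fold change as it is. Only the scalings and the weights could turn its direction. The scalings of Nab2 were added after seeing the data, and its difference at 6 h turned to -0.062 with own totals. Fits of the genotype at 24 h by each label, which the design does not set, were added after seeing the data. By title, limma called 37 genes without and 74 with the stimulus (Nr4a1 in both, Egr2 without), and by tag 2 and 3 genes and 0 of the 10. Genes with an unadjusted p under 0.05 numbered 1397 and 1988 by title and 327 and 461 by tag. With 1 library left out the counts called by title ran from 7 to 64 and from 1 to 182, and under other settings from 14 to 122 and from 0 to 269. The call of Nr4a1 with the stimulus held in 14 of 16 fits without 1 library and 6 of 9 other settings, and those of Nr4a1 and Egr2 without it each in 13 of 16 and 8 of 9. The exact test of 2 against 2 cannot go below 0.333, and no result here rests on these fits. No paired analysis was possible because the mouse behind each library is not given, and library numbers are not shared between groups. Depth limits mainly Fosb and Egr3, which have the fewest reads.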
